A study of Homo sapiens with 12 samples.

Results

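Small LAD-free islands are short stretches of DNA that lie outside the lamina-associated domains (LADs) of both naive and primed human embryonic stem cells, while the DNA on either side of them lies inside the LADs of both. The autosomes were cut into 10 kb windows, and an island is a run of 10 to 100 kb of windows outside both LAD lists whose left and right neighbouring windows are in both lists. On chromosomes 1 to 22 there were 347 such islands, of 6716 runs of windows outside both lists, and they held 4.72 Mb. Since the neighbours lie in both lists, every island is a gap with the same 2 edges in naive and in primed LADs. The islands were chosen by the presence or absence of LAD calls in the 2 interval lists, so their numbers, lengths and the absence of LADs in them describe the choice and are no result. Gene positions, promoter sequence and the length of the LADs beyond the neighbouring window were not used by the rule.

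The data come from the H9 human embryonic stem cell line, an established line, and were made by pA-DamID. An antibody to lamin B1 (LMNB1), a protein of the nuclear lamina, recruits protein A joined to a bacterial adenine methylase (Dam), which then marks the DNA close by. The labels give 12 untreated libraries: 3 LMNB1 and 3 Dam-only libraries of naive cells kept in RSeT medium, and 3 LMNB1 and 3 Dam-only libraries of primed cells kept in mTeSR medium. Dam-only libraries hold Dam without the tether. The deposited files hold 1 interval list per state, with 8474 naive and 5268 primed autosomal intervals and with no read number or signal. There is thus no replicate error for any value here, no difference was tested, and the depth behind a window is unknown. A list made from many cells cannot tell a window that is free of the lamina in every cell from one that is free in part of them. The number of mappable reads and of GATC sites, the sequence Dam methylates, in the windows was not analysed here. Nor was it examined whether these H9 cells carry or lack the DNA of each window, so an island need not be lamina-free chromatin. No file holds expression, so the state of the cells was not checked against marker genes.

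LADs hold mostly silent, gene-poor DNA that is packed against the inner face of the nuclear envelope. Active genes are known to lie mostly outside them, and a promoter inside a larger LAD can locally lack lamina contact while the DNA around it keeps it. Promoters rich in CpG dinucleotides, the CpG islands, are the promoters of widely used genes and of many developmental regulators, and many promoters of such regulators are held by Polycomb repression in embryonic stem cells.

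The promoters of the genes that started in islands with the longest shared LADs on either side were mostly rich in CpG, and those of olfactory receptor genes were not. To show both kinds, the 250 bases before the start are given for 4 genes of the first kind and for the 2 named island genes with the lowest CpG content (RefSeq, GRCh38.p14, 5′ to 3′ on the gene's strand, CG dinucleotides in capitals). The windows are chr6:84764599-84764848 (minus strand) for TBX18, chr3:111071566-111071815 (plus) for NECTIN3, chr6:98834324-98834573 (plus) for POU3F2, chr6:100464922-100465171 (minus) for SIM1, chr1:248029820-248030069 (plus) for OR2L2 and chr11:58406875-58407124 (minus) for OR5B3.
TBX18: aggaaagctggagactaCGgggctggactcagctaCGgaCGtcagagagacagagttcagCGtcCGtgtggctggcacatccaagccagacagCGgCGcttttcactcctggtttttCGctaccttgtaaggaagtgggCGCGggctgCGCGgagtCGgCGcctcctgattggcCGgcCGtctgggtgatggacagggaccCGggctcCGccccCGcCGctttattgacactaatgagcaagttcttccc
NECTIN3: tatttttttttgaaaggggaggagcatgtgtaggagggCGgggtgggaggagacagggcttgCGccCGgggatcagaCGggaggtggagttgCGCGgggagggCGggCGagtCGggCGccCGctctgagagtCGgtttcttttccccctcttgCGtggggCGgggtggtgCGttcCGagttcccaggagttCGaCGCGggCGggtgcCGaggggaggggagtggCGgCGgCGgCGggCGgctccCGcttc
POU3F2: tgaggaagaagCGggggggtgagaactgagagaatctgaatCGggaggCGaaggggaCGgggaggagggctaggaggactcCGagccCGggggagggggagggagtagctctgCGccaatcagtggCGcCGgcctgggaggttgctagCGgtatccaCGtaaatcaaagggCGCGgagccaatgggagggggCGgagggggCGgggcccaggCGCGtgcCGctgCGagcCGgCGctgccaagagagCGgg
SIM1: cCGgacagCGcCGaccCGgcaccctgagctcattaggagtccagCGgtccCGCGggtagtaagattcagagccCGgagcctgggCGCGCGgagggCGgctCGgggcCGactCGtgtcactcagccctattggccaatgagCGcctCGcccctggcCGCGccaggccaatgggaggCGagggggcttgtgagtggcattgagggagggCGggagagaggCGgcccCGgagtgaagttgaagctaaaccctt
OR2L2: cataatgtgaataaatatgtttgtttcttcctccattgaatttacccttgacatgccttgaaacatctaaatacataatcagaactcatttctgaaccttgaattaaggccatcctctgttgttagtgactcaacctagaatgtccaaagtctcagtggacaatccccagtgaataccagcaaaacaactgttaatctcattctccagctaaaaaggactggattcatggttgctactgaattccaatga
OR5B3: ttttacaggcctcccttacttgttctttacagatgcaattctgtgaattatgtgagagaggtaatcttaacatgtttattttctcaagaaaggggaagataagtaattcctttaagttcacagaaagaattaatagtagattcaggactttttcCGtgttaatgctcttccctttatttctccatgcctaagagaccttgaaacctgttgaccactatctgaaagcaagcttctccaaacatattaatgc
These hold 20 CG dinucleotides in TBX18, 27 in NECTIN3, 22 in POU3F2, 23 in SIM1, 0 in OR2L2 and 1 in OR5B3. The start of OR2L2 lies 0.069 kb inside its island, so most of its printed stretch lies in the neighbouring shared LAD.

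MicroRNA genes also lay in islands, and the mature sequences of 3 of them, MIR9-2 on chromosome 5 and MIR15B and MIR16-2 on chromosome 3, are shown for their seeds (bases 2 to 8, in capitals; RefSeq, GRCh38.p14). The seed is the stretch by which a microRNA pairs with its targets.
hsa-miR-9-5p: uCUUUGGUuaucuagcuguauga
hsa-miR-15b-5p: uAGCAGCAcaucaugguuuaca
hsa-miR-16-5p: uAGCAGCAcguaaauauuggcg
The microRNAs miR-15b and miR-16 share their seed, and that of miR-9 differs from it.

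Most islands were a single window, and most did not hold the start of a protein-coding gene. Of the 347 islands, 289 were 10 kb long, 32 were 20 kb and 26 were longer, up to 90 kb. At least 1 protein-coding gene started in 45 of them (12.97%, exact binomial 95% interval 9.62% to 17.0%, with islands taken as independent). A further 130 lay inside the body of a protein-coding gene (37.5%), 59 overlapped only a non-coding gene or a pseudogene (17.0%) and 91 overlapped no annotated gene (26.2%). In 11 islands lay 1 end of a gene whose strand is not given in the annotation used here, so that it could be a start or an end, and in the other 11 lay only the end of a gene. The share with a gene start was 27 of 289 among 10 kb islands and 18 of 58 among longer ones, with no adjustment for length.

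**Figure D1:**
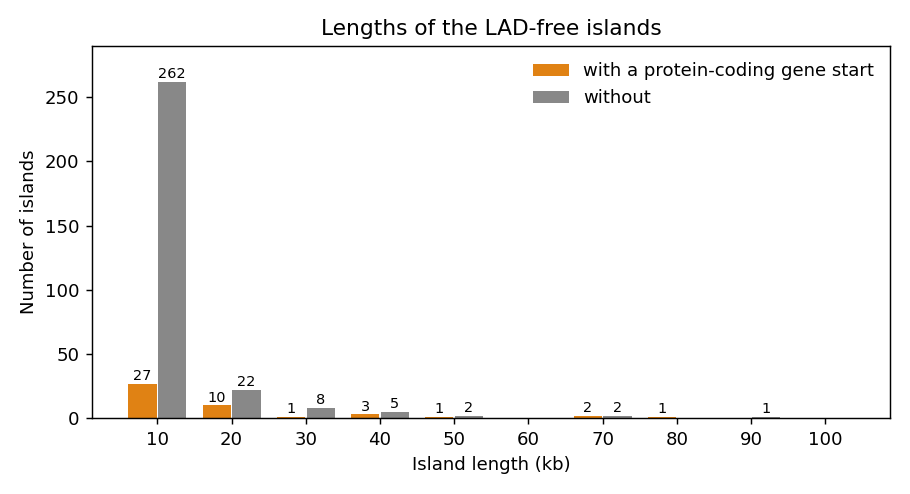
Number of islands (y axis) by island length in kb (x axis), with orange bars for islands in which a protein-coding gene starts and grey bars for the others. Of the 10 kb islands 27 hold a start and 262 do not; no island is 60 or 100 kb long.

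The longest island was 90 kb on chromosome 9 (chr9:41570001-41660000) and held no protein-coding gene. It was followed by 80 kb on chromosome 11 (chr11:89930001-90010000), which held TRIM64, and by 4 islands of 70 kb. Just outside the upper limit there was no run of 100 or 110 kb that otherwise passed the rule. Beyond it lay a run of 190 kb on chromosome 5 (chr5:116420001-116610000), at the semaphorin gene SEMA6A.

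Protein-coding genes started in islands more densely than in the shared LADs beside them. Against other DNA outside LADs, the islands were as dense or denser by starts over all genes and over genes with a known strand. They were less dense when multi-copy families were left out of the islands only, as given below. In all, 57 genes started in islands, which is 0.298% of the 19126 autosomal protein-coding genes, against 13.4% that started in shared LADs and 78.8% outside both lists. That came to 12.1 starts per Mb of island (exact Poisson interval 9.15 to 15.6, counting error only). In the shared LAD next to the islands, up to 50 kb on each side, there were 3.95 starts per Mb (3.17 to 4.87). All shared LADs held 2.18 per Mb (2.09 to 2.26) and all DNA outside both lists 10.5 (10.3 to 10.6). Runs of 1 Mb or more outside both lists held 11.5 (11.2 to 11.7). Genes without a strand entered these counts only when they lay wholly inside a stretch. Counted over genes with a known strand, the islands held 11.4 starts per Mb (8.59 to 14.9). The single shared window right beside them held 7.35, and the windows from 20 to 300 kb away between 3.03 and 5.33. On that count all shared LADs held 1.87 per Mb. All DNA outside both lists held 8.33 (8.18 to 8.48), below the interval of the islands. Runs of 1 Mb or more outside both lists held 8.99 (8.82 to 9.17), inside that interval. With genes placed by the midpoint of their body the order of islands and other LAD-free DNA turned, at 9.32 midpoints per Mb in islands and 10.4 in all DNA outside both lists. The neighbouring shared LAD then held 4.76 midpoints per Mb.

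Gaps of 1 state only held fewer starts than the common gaps. Of the 10 kb islands, 8.30% held the start of a gene with a known strand (24 of 289, 5.39% to 12.1%). Single-window naive gaps inside primed LADs numbered 1815, and 3.91% held one (3.07% to 4.91%). Of 1298 single-window primed gaps inside naive LADs, 2.62% did (1.82% to 3.64%). The share was 3.32% of the windows beside the islands, 1.75% of all shared windows and 7.35% of all windows outside both lists. These intervals take windows as independent and hold no replicate error.

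**Figure D2:**
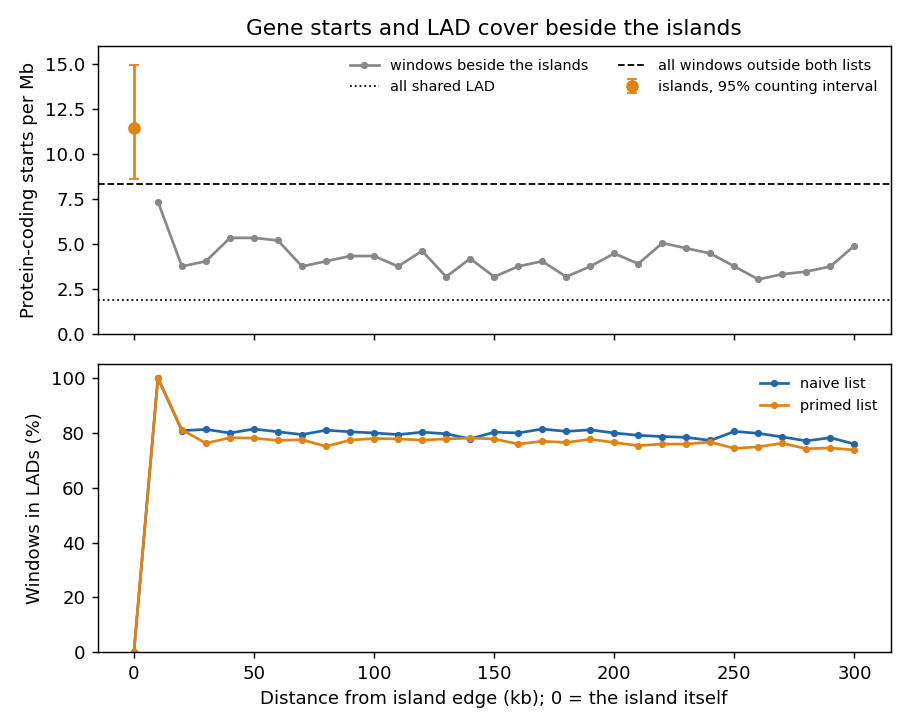
Top, starts of protein-coding genes with a known strand per Mb (y axis) in the islands (orange, with its 95% counting interval) and in 10 kb windows up to 300 kb from the island edge (grey, x axis in kb), with dotted and dashed lines for all shared LAD and all windows outside both lists. Bottom, percent of those windows in naive (blue) and primed (orange) LADs. The islands stand at 11.4 starts per Mb the first window beside them at 7.35 and the windows from 20 kb outward between 3.03 and 5.33; cover is 100% in the first window by the rule and between 73.8% and 81.4% beyond it.

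Within the 10 kb islands, 19 of 28 starts with a known strand lay at least 2.5 kb from both edges (67.9%, 47.6% to 84.1%), with a median distance to the nearer edge of 3.09 kb. In shared LADs this was 49.5% of 2199 starts and in other windows outside both lists 49.4% of 11983, with medians of 2.46 and 2.47 kb. The interval of the islands holds both shares, so a difference was not detectable with 28 starts. The start nearest to an edge was that of OR2L2, at 0.069 kb.

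Of the 57 genes, 24 lay wholly inside their island and 33 reached out of it. Of those 33, 28 had at least 50% of their body in naive LADs and 28 in primed LADs, 27 of them in both. The median share of the body in LADs was 85.7% in naive and 83.3% in primed (range 18.8% to 99.5% in each). A gene that reaches out of an island enters LADs of both states by the rule, so these shares describe the genes and no other genes were set beside them. Cover was under 50% in both states for OR2L2 (18.8% in both), TMED7-TICAM2 (45.2% in both), CFAP20DC (47.9% in both) and GLRA1. SLC9A2, a sodium-proton exchanger gene, stood at 99.5% in both lists, and LGSN, the lengsin gene of the eye lens, at 98.8%. The cover was equal in naive and primed for 21 of the 33 genes, higher in naive for 7 and higher in primed for 5. It differed by over 15 points for 6 genes. PPM1H, a phosphatase gene, had 68.7% of its body in naive LADs and 37.8% in primed LADs. GAD2, which encodes an enzyme of GABA synthesis, stood at 95.9% in naive and 73.2% in primed. CUL3, a ubiquitin ligase scaffold gene, stood at 86.7% and 69.3%, and DNAJB14, a co-chaperone gene, at 86.9% and 67.0%. Primed cover was the higher for PTPN14, a tyrosine phosphatase gene, at 64.1% in naive and 88.7% in primed, and for CD2AP, an adaptor gene, at 33.5% and 58.4%.

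The length of unbroken shared LAD on the shorter side tells how deep an island lies. The median was 20 kb (quartiles 10 and 70 kb), and 159 of the 347 islands (45.8%) had a single shared window on at least 1 side. At the other end, 79 islands had at least 100 kb on both sides. A protein-coding gene started in 12 of these 79, 19 lay inside a gene body, 20 overlapped only a non-coding gene or pseudogene and 25 overlapped no gene. The deepest was an island of 30 kb on chromosome 1 (chr1:72310001-72340000), with 2050 kb of shared LAD on its left and 2430 kb on its right and no protein-coding gene. The next was chr3:145100001-145110000, with 1970 kb on its left and 2250 kb on its right and no annotated gene.

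The 10 islands with a gene start and the longest shorter flank held the starts of TBX18, TWIST1, NECTIN3, POU3F2, CCN1, SIM1, LRRC8B, ISL1, TLE4 and RAP2A. TBX18, TWIST1, POU3F2, SIM1 and ISL1 encode transcription factors known from development. They were grouped so after the genes were seen, and the share of such genes elsewhere was not taken. TBX18, a T-box factor of the epicardium and the sinus node, starts in a 10 kb island (chr6:84760001-84770000). Its unbroken LADs measured 780 kb on the left and 800 kb on the right in naive, and 780 and 810 kb in primed. The DNA within 500 kb of the island lay wholly in LADs in both states, and the gene body was covered at 85.7% in both. TWIST1, a basic helix-loop-helix factor of mesoderm and cranial neural crest, lay wholly inside a 10 kb island (chr7:19110001-19120000). Its flanks measured 1760 and 580 kb in naive, and 4610 and 1650 kb in primed, so that the same gap sat in a longer primed than naive domain.

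POU3F2, a POU-homeobox factor of neural precursors, lay wholly inside a 20 kb island (chr6:98820001-98840000), with flanks of 310 and 480 kb in naive and of 610 and 480 kb in primed. The long non-coding RNA gene PNKY starts in the same island. SIM1, a factor of hypothalamic neurons, starts in another 20 kb island of chromosome 6 (chr6:100450001-100470000). Its flanks measured 830 and 300 kb in naive, and 830 and 1140 kb in primed. ISL1, a LIM-homeobox factor of motor neurons and cardiac progenitors, lay wholly inside a 20 kb island (chr5:51380001-51400000), with flanks of 200 and 160 kb in naive and of 200 and 2020 kb in primed. The non-coding gene ISL1-DT starts 116 bases from it on the other strand. The far border of the LAD to the left of the island was the same in both states for SIM1 and CCN1. It was also the same for TBX18 and ISL1, but there it is the edge of another island. These are chr6:83970001-83980000 and chr5:51170001-51180000, so the rule made both borders equal. SP8, a zinc finger factor of limb and brain named after its values were seen, lay wholly inside a 50 kb island (chr7:20770001-20820000), with flanks of 450 and 30 kb in naive and of 1650 and 210 kb in primed.

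The other 5 genes have varied functions. NECTIN3, a cell adhesion gene, starts in chr3:111070001-111080000, with flanks of 510 and 480 kb in naive and of 1700 and 660 kb in primed, and 93.3% of its body lay in LADs in both. CCN1, a secreted matrix-associated protein gene, lay wholly inside chr1:85580001-85590000, with flanks of 300 and 1270 kb in naive and of 300 and 1320 kb in primed. LRRC8B, which encodes a subunit of the volume-regulated anion channel, starts in chr1:89520001-89530000, with flanks of 690 and 270 kb in naive and of 2180 and 240 kb in primed. RAP2A, a small GTPase gene, starts in chr13:97430001-97440000, with flanks of 200 and 390 kb in naive and of 1460 and 150 kb in primed. TLE4, a Groucho-type corepressor gene, starts in chr9:79570001-79580000 and went the other way, with flanks of 1160 and 1980 kb in naive and of 570 and 150 kb in primed. RICTOR, which encodes the subunit that defines the mTORC2 kinase complex, started in a 10 kb island with at least 110 kb of shared LAD on both sides, and 89.4% of its body lay in LADs in both states.

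**Figure D3:**
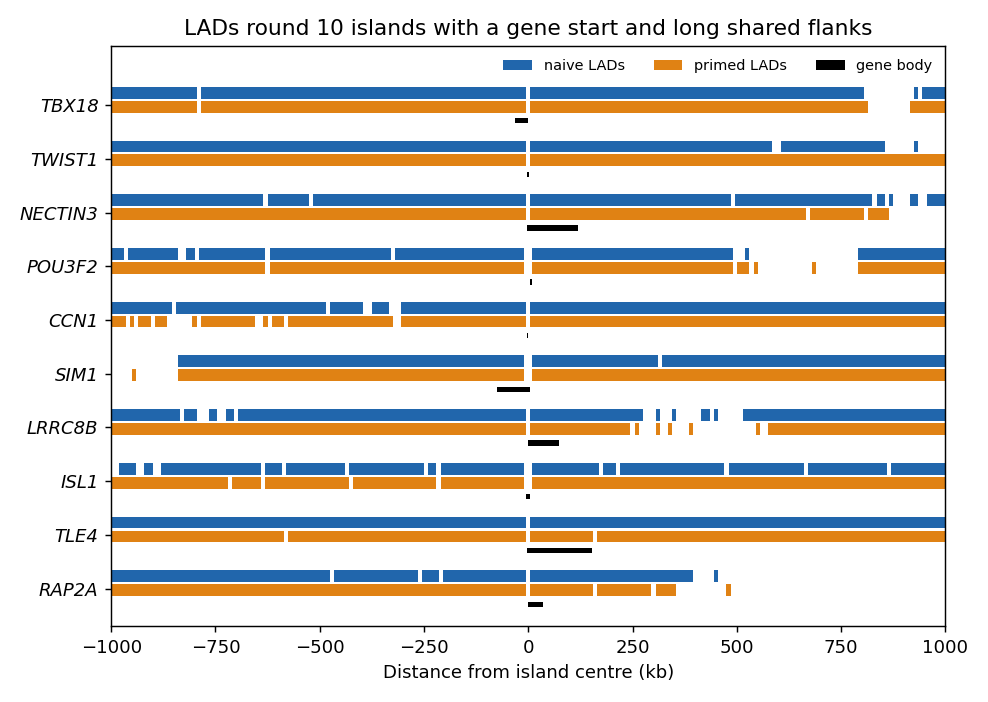
Naive LADs (blue), primed LADs (orange) and the body of the gene that starts in the island (black) within 1000 kb of the island's centre (x axis, kb), for the 10 islands with a gene start and the longest shorter flank. Each row shows a gap of 10 or 20 kb at 0 kb with the same edges in both states.

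The LADs on both sides of an island together had a median of 280 kb in naive (quartiles 70 and 960 kb) and of 440 kb in primed (70 and 1945 kb). The sum was the longer in primed for 187 islands, the longer in naive for 138 and equal for 22. For the 45 islands with a gene start these counts were 31, 11 and 3, with medians of 430 kb in naive and 1090 kb in primed. For the 302 islands without one they were 156, 127 and 19, with medians of 250 and 355 kb. Longer primed LADs were general in these lists: of all 117704 windows in both lists, 77.0% lay in a longer primed than naive LAD and 21.2% in a longer naive LAD, against 53.9% and 39.8% of the islands by summed flanks. The windows count a long LAD more often than a short one, so the 2 sets of shares are not on the same footing. Within 500 kb of the islands, the median share of DNA in LADs was 86.0% in naive and 85.0% in primed.

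**Figure D4:**
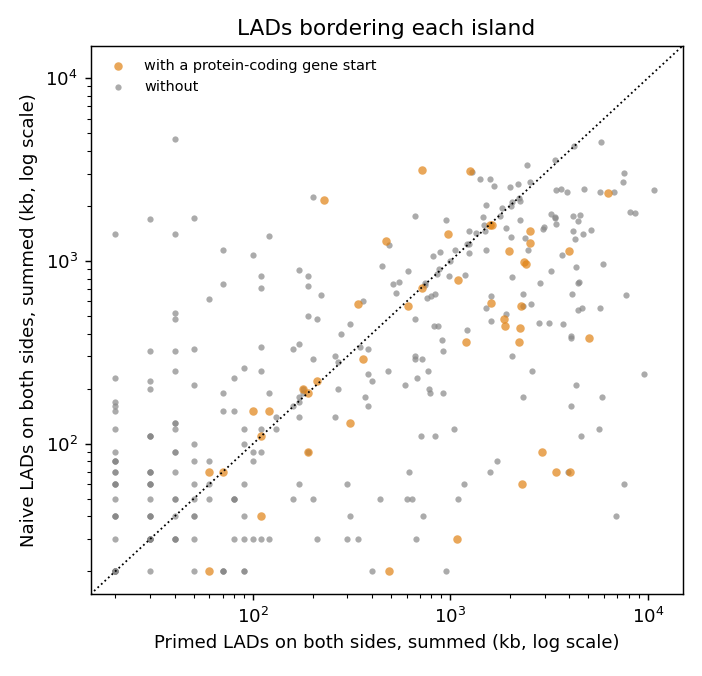
For each of the 347 islands, the summed length in kb of the naive LADs on both sides (y axis, log scale) against that of the primed LADs (x axis, log scale), in orange for islands with a protein-coding gene start and in grey for the others. Points below the dotted line of equality, 187 of 347, have longer primed LADs.

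The next counts come from the LAD calls that chose the islands and only describe that choice. The naive list had 7486 gaps of 10 to 100 kb, of which the 347 islands are 4.64%, and the primed list had 4440, of which they are 7.82%. Of all 5692 runs of 10 to 100 kb outside both lists, another 890 had a window in both lists on 1 side only, and 4447 on neither side.

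Genes shared an island in 7 cases. IFT80 and SMC4, which start 425 bases apart on opposite strands, and TRIM59 started in a 70 kb island (chr3:160390001-160460000). IFT80 encodes a protein of transport in cilia and SMC4 a core subunit of condensin. SMC4 and TRIM59 lay wholly inside this island, while 93.5% of IFT80 lay in LADs in both states. PIGN, a gene of GPI anchor synthesis, and RELCH started 199 bases apart on opposite strands in chr18:62180001-62190000, and their bodies ran out of the island in both directions. In naive LADs lay 89.9% of PIGN, against 95.8% in primed LADs, and for RELCH the shares were 65.2% and 65.0%. CCDC148 and the plakophilin gene PKP4 were likewise 199 bases apart in chr2:158450001-158460000, together with LOC124907900. TMED7 and its read-through gene TMED7-TICAM2 share their start in chr5:115610001-115630000 and are 1 locus, but each entered the counts as a gene. The 30 kb island at chr6:63570001-63600000 held the starts of LGSN, LOC124901228 and LOC128125822. LGSN and LOC124901228 start close together on the same strand, and LOC128125822 starts at the same base as a transcript of PTP4A1.

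A start on the opposite strand within 1000 bases upstream was found for 8 of 54 island genes (14.8%, 6.62% to 27.1%). This was 13.3% in shared LADs and 18.6% in other DNA outside both lists, both inside that interval. The interval takes genes as independent, but both members of a pair were counted. Such pairs are CCDC148 and PKP4, IFT80 and SMC4, and PIGN and RELCH.

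Some islands held members of multi-copy gene families. How reads that map to several places were handled is not given here, and the similarity of the copies was not measured. These 11 genes in 7 islands were TAF11L7, TAF11L8, TAF11L9 and TAF11L10 in a 70 kb island (chr5:17530001-17600000), the beta-defensin genes DEFB113 and DEFB114, the salivary amylase gene AMY1C, CTAGE4, TRIM64 and the olfactory receptor genes OR2L2 and OR5B3. Whether copies bear on the LAD calls at these genes was not tested. Without them 46 genes started in islands, at 9.75 per Mb of all islands. This is below the 10.5 per Mb of all DNA outside both lists, from which such families were not removed.

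Promoters of genes that started in islands were richer in CpG than those of genes in shared LADs. The CpG observed/expected ratio sets the CG dinucleotides found against those foreseen from the C and G content. It covers 300 bases, from 250 before to 50 after the annotated start nearest to the gene's start, at any distance. For LGSN this was not its start in the island. That promoter had 37.3% G and C, against 63% for LOC124901228, which starts close by on the same strand. The ratio had a median of 0.827 over 54 island genes (quartiles 0.625 and 0.980, exact interval of the median 0.747 to 0.873). That interval takes promoters as independent, though TMED7 and TMED7-TICAM2 share theirs and the TAF11L copies had near-equal values. The median was 0.588 over 2199 genes in shared LADs (0.556 to 0.623) and 0.583 over 83 genes in the shared LAD beside the islands (0.353 to 0.679). Over 11983 genes elsewhere outside both lists it was 0.786 (0.781 to 0.792), which lies inside the interval of the island genes. A ratio of at least 0.6 was reached by 42 of 54 island promoters (77.8%), against 49.3% in shared LADs and 69.4% elsewhere outside both lists. All 10 promoters with an entry from islands with at least 100 kb of shared LAD on both sides reached it, with a median of 0.881. The highest values were 1.29 for SMC4, 1.19 for MARCKS, which encodes a protein kinase C substrate, and 1.19 for SP8. The lowest were 0.0987 for OR2L2, 0.105 for OR5B3, 0.173 for TRIM64 and 0.178 for DEFB113.

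**Figure D5:**
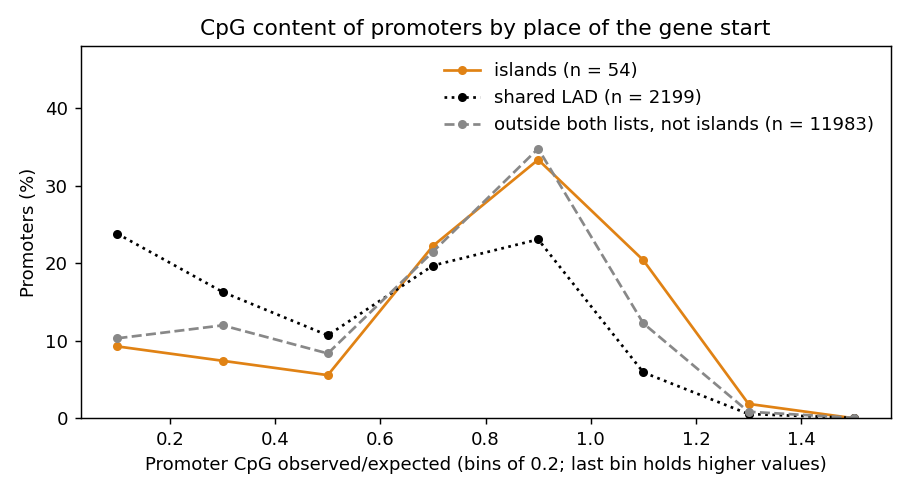
Percent of promoters (y axis) by CpG observed/expected ratio (x axis, bins of 0.2) for genes that start in islands (orange), in shared LADs (dotted) and elsewhere outside both lists (dashed). Island promoters peak between 0.8 and 1, as those elsewhere outside LADs do, while 23.8% of the shared LAD promoters and 9.26% of the island promoters lie below 0.2.

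Short motifs were searched on both strands of the same 300 bases. The SP motif GGGCGG was found in 36 of 54 island promoters (66.7%, 52.5% to 78.9%), in 40.9% of those in shared LADs and in 58.7% of all 15101 promoters searched. The CCAAT box, CCAAT, was in 25 of 54 (46.3%, 32.6% to 60.4%), against 38.02% in shared LADs and 36.1% in all. The TATA box letters TATAAA were in 7 of 54 (12.96%), against 17.0% in shared LADs and 9.83% in all. The 7 include LGSN, whose stretch is not at its start in the island. The ETS motif CCGGAAG was in 2 of 54 (3.70%, 0.452% to 12.7%), against 7.64% in shared LADs and 14.3% in all. The NRF1 motif was in 3 of the 54 (5.56%) and in 8.65% of all, the cAMP response element TGACGTCA in 2 (3.70%) and in 2.62% of all, and the YY1 motif AAGATGGC in 1 (1.85%) and in 3.87% of all. None of these motifs contains another. A match describes the letters only.

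Of 34 lists and families of protein-coding genes, 27 had no member that started in an island, and no list had more than 4. The share over all protein-coding genes was 0.298%. Of 517 genes in 8 lists of widely used functions (cytosolic and mitochondrial ribosomal proteins, proteasome, respiratory chain, translation factors, tRNA synthetases, splicing and nuclear pore), 0 started in islands, 20 in shared LADs and 475 outside both lists. Of 133 homeobox genes, 2 started in islands (ISL1 and POU3F2), 12 in shared LADs and 113 elsewhere outside both lists. Of 106 SOX, FOX, GATA, KLF and T-box genes TBX18 started in one, 5 in shared LADs and 93 elsewhere outside both. Of 384 solute carriers SLC9A2 did, of 107 replication and cell cycle genes CDC14A, and of 391 olfactory receptor genes OR2L2 and OR5B3, while 176 olfactory receptor genes started in shared LADs. The 4 TAF11L genes were matched by the pattern for the transcription machinery. None of the 16 core, 23 naive or 21 primed pluripotency genes on the autosomes started in an island, and of 23 neuroectoderm genes POU3F2 did. None of the 505 ZNF genes did, of which 14 started in shared LADs.

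The remaining island genes serve varied functions, and they are named after their values were seen. CDKN2A, which encodes the cell cycle inhibitors p16 and ARF, lay wholly inside a 40 kb island (chr9:21960001-22000000) with a single shared window on one side. CDKN2B-AS1, a long non-coding RNA gene, starts in it too. EFNA5, an axon guidance ligand gene, had 72.5% of its body in naive and 69.1% in primed LADs. GLRA1, a glycine receptor gene, stood at 48.9% in naive and 39.1% in primed. The cover was the same in both states for CDC14A, a phosphatase gene of the cell cycle (85.7%), RPF1, a gene of ribosome assembly (96.1%), HECA (89.2%), JKAMP (73.8%), MARCKS (56.7%) and CFAP20DC (47.9%). Wholly inside their islands lay ACKR1, the Duffy chemokine receptor gene, ANKRD1, which encodes an ankyrin repeat protein of heart muscle, and ADO, which encodes a thiol dioxygenase.

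MicroRNA genes were found in islands with and without coding genes. Of 1793 autosomal microRNA genes 10 lay wholly inside islands (0.558%), and 280 lay in shared LADs. MIR9-2 lay in a 40 kb island on chromosome 5 (chr5:88660001-88700000) that held no protein-coding gene and the starts of MIR9-2HG, MEF2C-AS2 and GSCAR. Its flanks measured 380 and 200 kb in naive, and 870 and 1700 kb in primed. MIR124-2 lay in a 10 kb island on chromosome 8, with flanks of 1130 and 210 kb in naive and of 1170 and 1230 kb in primed. The microRNAs miR-9 and miR-124 are both known as abundant in neurons. MIR15B and MIR16-2 lay in the island of SMC4, whose transcript hosts them. The other 6 were MIR3650, MIR3688-1, MIR3688-2, MIR4307, MIR4470 and MIR9900. MIR3688-1 and MIR3688-2 overlap and are 1 locus, but both are among the 10. None of 419 tRNA genes and none of 24 small nuclear RNA genes lay in an island. The share over all protein-coding genes was 0.298%, so sets of this size are too small to show an absence.

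Islands without a start in them also lay inside gene bodies. They fell in 120 host genes with a median length of 239 kb, of which 31 were 500 kb or longer. Short hosts were among them, such as LAMP5 at 15.9 kb. More than 1 island lay in 10 genes. EYS, a retinal gene of 1987 kb, held 3, as did SUPT3H (569 kb), a gene of a transcription coactivator complex, and KCNQ3 (360 kb), a potassium channel gene. Among those with 1 island were LRP1B, a lipoprotein receptor family gene, with 1180 kb of shared LAD on the shorter side, and LINGO2 with 630 kb. The need to hold a whole island favours long genes in advance, and gene length was not compared with what chance placement would give. An annotated start of another transcript lay in an island for 5 more genes, SRSF11, LIFR, PIK3R1, PTP4A1 and L3HYPDH, whose outermost start lay elsewhere. A start of PTP4A1 there is also that of LOC128125822, which was counted above. LIFR is the receptor of leukemia inhibitory factor, and its island had 100 kb of shared LAD on the shorter side.

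Islands occurred on 19 of the 22 autosomes, at 2.95 per 10 Mb of shared LAD over all. Chromosome 5 had 36, chromosome 4 had 32 and chromosome 6 had 31, while chromosome 17, with 8.35 Mb of shared LAD, had none. Chromosomes 19 and 22 had none either, but with 0.02 and 0 Mb of shared LAD they had next to no place for one. Per 10 Mb of shared LAD, chromosome 21 stood highest at 13.7, with 15 islands in 11.0 Mb, followed by chromosome 15 at 5.03 and chromosome 10 at 4.05. None of the 15 islands of chromosome 21 held the start of a protein-coding gene, and 8 of the 45 islands with a start were on each of chromosomes 1 and 6. Of the 347 islands, 43 (12.4%) had another within 100 kb and 27 (7.78%) within 20 kb, and the median distance to the nearest was 1320 kb. No even or random placement was set beside these distances. AK3, an adenylate kinase gene, and RCL1, a gene of ribosomal RNA processing, started in separate 10 kb islands of chromosome 9 (chr9:4740001-4750000 and chr9:4790001-4800000) that lay 40 kb apart. The body of AK3 was covered at 92.3% and that of RCL1 at 89.6%, in both states.

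The strand is not given here for 11 genes with 1 end in an island, so they were counted in no group. They include RAB2A, ASPH, SULF1 and KHDRBS3 on chromosome 8, a chromosome with 22 islands for which the promoter table used gives no strands, and TSHZ1 on chromosome 18 and BMP2K on chromosome 4.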

How the data were processed

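LADs were mapped by pA-DamID in H9 cells. The authors deposited 1 list of intervals per state (chromosome, start and end in bases, an unscored kind of value classed here as other), with no score or signal. Per the submitters' processing notes, BWA, SAMtools 1.10, SICER and the build hg38 were used. The order of steps, the thresholds and the way replicates and Dam-only libraries were combined are not stated. The labels name final lists, while those used are called simple. Nothing tells whether replicate libraries were separate cultures.

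From the deposited intervals, whose edges were all multiples of 10 kb, islands were found on chromosomes 1 to 22. Genes came from RefSeq (GRCh38.p14, the primary assembly of hg38) and were placed by their 5′ end. The strand came from the RefSeq promoter table, which matched 15101 of 19126 protein-coding genes (79.0%). A gene without a strand was counted when it lay wholly inside. Promoter values leave out chromosome 8 and use the promoter nearest to the gene's start, with no limit on its distance. With that, 82.0% of genes had one. LAD cover is the percent of the gene body in a list's intervals. Coordinates are 1-based.

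The members, the 38 gene lists and families and the measures were chosen with earlier results of these data known. Named are the 10 islands with the most starts, the 10 with a start and the longest shorter flank, up to 4 members per list and the runs nearest the length limit. Other genes were named after their values were seen. Some items, 1 run beyond the length limit among them, are not reported here. Intervals are exact binomial or Poisson (95%) and cover counting error only. The alternatives changed lengths, flanks, LADs, chromosomes and the placing of genes. The functions were tested on simulated lists with planted islands. Software was matplotlib 3.10.9, SciPy 1.17.1, pandas 2.3.3, numpy 2.4.6 and Python 3.11.15.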

Additional observations from a re-analysis of the deposited data

How the results depend on the processing

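Of 71 alternative values, 49 stayed within 1.5 times the reported count or within the reported interval, and 22 did not. The number of islands depended most on the rule: 58 with a lower limit of 20 kb, 104 and 79 with shared flanks of at least 50 and 100 kb, 115 without LADs under 50 kb, and 5684 with flanking windows in at least 1 list. Gaps of the naive list alone numbered 7486 and those of the primed list alone 4440. The number of protein-coding genes that started in islands was then 26, 14, 12, 28 and 922 in the same order of settings, 34 with 50% of the gene body required and 118 with all annotated genes. The share of islands with a start was 31.03% with the lower limit of 20 kb, 17.4% without LADs under 50 kb, 8.36% by gene body and 22.5% with all annotated genes. Starts per Mb were 6.84 with flanking windows in at least 1 list, 7.20 by gene body and 25 with all annotated genes. The median CpG ratio was 0.881 with shared flanks of at least 100 kb, over 10 promoters. Leaving out chromosome 8, using only genes with a strand, leaving out multi-copy families and counting any promoter of a gene were added after seeing the data, and left all values within those limits.

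No paired analysis was possible because each state has 1 list and no replicate values, and for the same reason no replicate was left out. The depth behind the lists is unknown. Of the islands, 289 were single windows, and 159 had a single shared window on at least 1 side, so that a change of 1 window call adds or removes them.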
